A study of Caenorhabditis elegans with 5 samples.

Results

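LIN-42 peaks were examined at 5 microRNA (miRNA) genes of Caenorhabditis elegans: let-7, lin-4, mir-1, mir-239.2 and mir-2213. Transcriptional reporters exist for let-7, lin-4 and mir-1, and peaks were collected in the window that the study gives for each reporter. The other two were taken because the study's annotated peak list names them as the closest gene of a region found in both LIN-42::GFP replicates. That list names 338 closest genes. In all, 11 of 4654 peaks lay in the windows or regions of the 5 genes, and 25 lay in them or within 20 kb.

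All libraries came from strain HML214, in which LIN-42 carries a GFP tag, grown at 20°C to the late L4 stage. Chromatin of whole animals was immunoprecipitated with an antibody against GFP (LIN-42::GFP replicates 1 and 2) or with a rabbit antibody raised against LIN-42 itself (endogenous LIN-42, 1 library). The study places the peptide used to raise it in the isoforms LIN-42A and LIN-42B, and does not name LIN-42C there. The study's methods describe both antibodies as used on GFP-tagged LIN-42, so neither group is an untagged animal, and no library from animals without LIN-42 or without the tag was analysed here. The 2 input samples of the same strain, which were not immunoprecipitated, have no peak list of their own, and the headers of the LIN-42::GFP lists name an input as control. Since the extract held every tissue, a peak does not say in which cells LIN-42 lay. The study describes the LIN-42::GFP replicates as biological replicates from separate extracts, and the labels do not say more.

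LIN-42 is the worm homolog of PERIOD, a repressor in the circadian clock of flies and mammals, and its level rises and falls with the larval molts. It belongs to the heterochronic pathway, the genes that set which cell fates are expressed at which larval stage. miRNAs are short RNAs, cut from longer primary transcripts, that pair with messenger RNAs and lower their output. lin-4 acts early in this pathway by repressing lin-14, and let-7 acts late by repressing lin-41 at the passage from larva to adult. mir-1 is a conserved miRNA of muscle. For mir-239.2 and mir-2213 no developmental role is stated here.

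The 3 peak lists differ in depth and in length. MACS, the peak caller, kept 1 sequenced tag per genome position, which left 38236 and 43991 tags in the LIN-42::GFP replicates and 122089 in endogenous LIN-42, so that between 94.6% and 99.0% of the aligned tags were removed as redundant. The lists hold 946, 2580 and 1128 peaks, with medians of 6, 5 and 7 tags. The smallest called peaks have 4 tags in the LIN-42::GFP lists, which is 1.05 per 10000 kept tags in replicate 1 and 0.909 in replicate 2, and 5 tags (0.41 per 10000) in the endogenous list. A gene without a peak was therefore not detected at this depth, and it is not shown to lack LIN-42. Counts are given below with exact 95% Poisson intervals, which cover counting error only.

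Of the 5 genes, only mir-239.2 and mir-2213 had a peak in each list. Their regions were chosen because both LIN-42::GFP replicates had a peak there, so only their endogenous peaks were not fixed by the choice. let-7 had 4 peaks, 3 of them in LIN-42::GFP replicate 1 and the other in replicate 2, and no endogenous peak. lin-4 had a single peak, in replicate 1, and mir-1 had none in its window. By list, the windows and regions held 6, 3 and 2 peaks. With 20 kb added on each side, a span at the mean density of its list would hold 0.423 to 0.506 peaks in replicate 1. The same figure is 1.15 to 1.38 in replicate 2 and 0.504 to 0.603 in endogenous LIN-42. A peak near a gene is therefore not by itself tied to that gene. Positions below are in the ce10 build of the peak lists. The reporter windows are given in the study without a build, span more than the cloned fragments stated beside them, and were read as ce10. A peak in a window therefore need not lie in the fragment that drives the reporter.

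**Figure D1:**
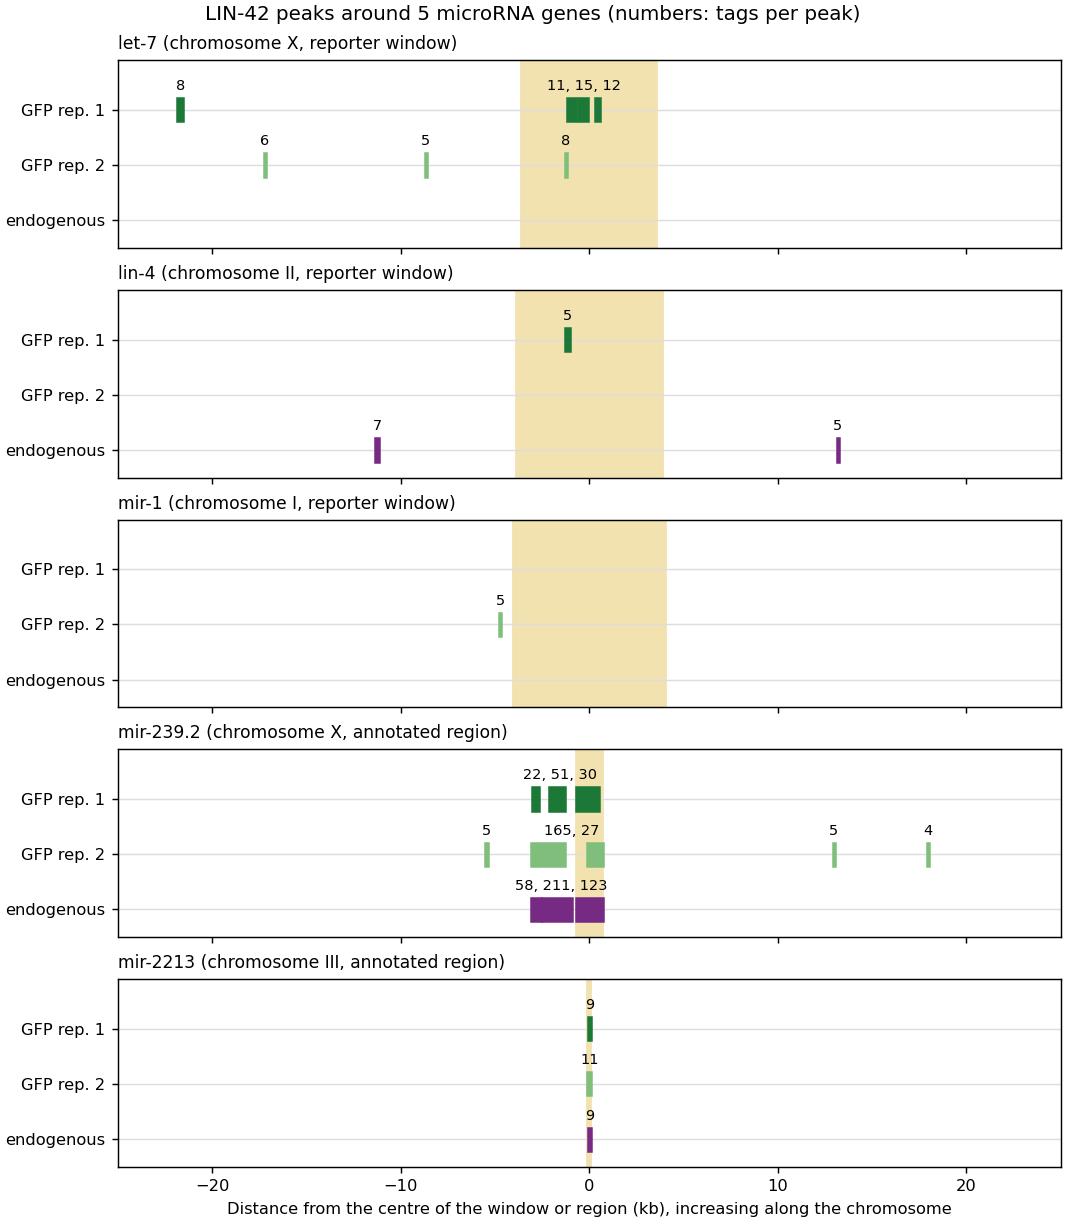
Peaks of the 3 lists around each of the 5 miRNA genes. The x axis is the distance in kb from the centre of the reporter window or annotated region (shaded), bars are peaks drawn to scale with a thin outline, and numbers are tags per peak from left to right. The peaks at mir-239.2 and mir-2213 line up in each list, while those at let-7 lie in the LIN-42::GFP lists and the 1 in the lin-4 window lies in replicate 1. The mir-239.2 and mir-2213 regions were chosen for peaks in both LIN-42::GFP replicates, so their alignment in those lists was fixed by the choice.

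The let-7 window spans 7217 bp of chromosome X, from 14742029 to 14749245. In LIN-42::GFP replicate 1 its 3 peaks stood close together. The first, from 14744456 to 14744927, held 11 tags (5.49 to 19.7). The next, from 14745042 to 14745544, held 15 tags (8.4 to 24.7), and the last, from 14745946 to 14746175, held 12 tags (6.2 to 21.0). They were separated by gaps of 114 and 401 bp, with summits 570 and 681 bp apart. The intervals of their tags overlap, which does not show that the peaks are equal, and no test was run. The replicate 2 peak, from 14744322 to 14744463, held 8 tags (3.45 to 15.8).

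Summed over its peaks, let-7 took 38 tags in replicate 1, or 9.94 per 10000 kept tags (7.04 to 13.7), and 8 tags in replicate 2, or 1.82 per 10000 (0.784 to 3.59). These intervals do not overlap, but the sums cover 1205 bp in replicate 1 and 142 bp in replicate 2. Per kb of called peak the rates come to 8.25 tags per 10000 kept tags in replicate 1 and 12.8 in replicate 2. The lower sum in replicate 2 therefore goes with a shorter called length. Called length itself depends on the tags, and a small peak is short and dense when called. The density therefore cannot show whether the signal at let-7 was equal in the replicates, and no conclusion is drawn from it.

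Only the first of the replicate 1 peaks met the replicate 2 peak. Over the 5 genes, 3 of the 6 replicate 1 peaks shared at least 1 bp with a peak of replicate 2, where 41.8% of all replicate 1 peaks did. All 3 replicate 2 peaks overlapped a replicate 1 peak, where 15.5% of that list did. Nothing is read from these counts, since the regions of mir-239.2 and mir-2213 entered because both replicates had a peak there. At let-7 the overlap was 8 bp, which is 1.69% of the replicate 1 peak and 5.63% of the replicate 2 peak. Of the 395 overlapping replicate pairs in the lists, 2 overlapped by no more than this, and the median overlap was 137 bp. The let-7 summits lay 452 bp apart, a distance that 15 of the 395 pairs reached or passed, against a median of 11 bp. let-7 is 1 region in the study's annotated peak list, from 14744322 to 14744927 in the class of non-coding promoters, although the peaks of the 2 replicates meet only at their ends.

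The 2 other let-7 peaks of replicate 1 had more tags than the first and were not found in replicate 2. Among replicate 1 peaks of 13 to 15 tags, 42 of 51 overlapped a replicate 2 peak (82.4%, Wilson interval 69.7% to 90.4%), so that the let-7 peak of 15 tags is among 9 that did not. Of the peaks with 10 to 12 tags, 63 of 83 did (75.9%, 65.7% to 83.8%), and the let-7 peak of 12 tags is among the 20 that did not.

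**Figure D2:**
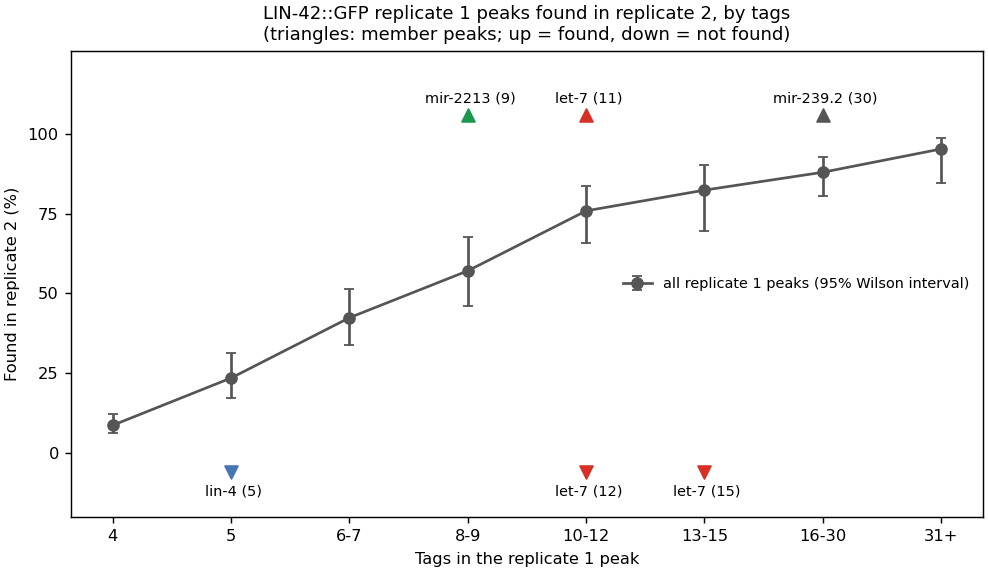
Share of LIN-42::GFP replicate 1 peaks that overlap a replicate 2 peak (y axis, %), by the number of tags in the replicate 1 peak (x axis); bars are 95% Wilson intervals. Triangles mark the 6 replicate 1 peaks of the miRNA genes with their tags in parentheses, pointing up where the peak was found in replicate 2 and down where it was not. The share rises from 8.68% at 4 tags to 95.3% at 31 or more, and 2 of the 3 let-7 peaks were missed in bins where over 75% were found.

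Against their own lists, the let-7 peaks were above the middle. In replicate 1, 72.6%, 82.5% and 76.2% of peaks had fewer tags, and in replicate 2, 83.1% did. The fold enrichment that MACS reported, the ratio of tags at the summit to its estimate of background, was 145.6, 194.13 and 242.66 in replicate 1 and 165.32 in replicate 2. The replicate 2 value ranks 75 of 2580. These folds recur at other peaks, as steps of whole tags over a shared background level would: 46 peaks of replicate 1 have exactly 145.6, and 21 peaks of replicate 2 have exactly 165.32. The peaks that share a fold need not share a tag number: 2 of those 46 and 18 of those 21 also have the 11 or 8 tags of the let-7 peak.

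No endogenous LIN-42 peak lay within 20 kb of the let-7 window. The nearest one began at 14908096, 158851 bp beyond its edge, with 33 tags. Over the 5 genes, 2 of the 3 replicate 1 peaks shared with replicate 2 also overlapped an endogenous peak, where 78.2% of all 395 shared peaks did, and let-7 was the one that did not. The share found in the endogenous list grew with the tags of the shared peak, from 51.7% at 4 tags to 90.5% at 16 to 30 tags. At 10 to 12 tags, where the shared let-7 peak falls, it was 79.4% (50 of 63, 67.8% to 87.5%), which puts let-7 among 13 shared peaks of that size without an endogenous peak. Conversely, 2 of 2 endogenous peaks at the miRNA genes overlapped a replicate 1 peak, where 34.4% of that list did, and again nothing is read from this, since the regions were chosen for LIN-42::GFP peaks.

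Further from let-7, replicate 1 had a peak of 8 tags from 14723784 to 14724093, and replicate 2 had peaks of 6 tags from 14728361 to 14728463 and of 5 tags from 14736908 to 14737023. They lay 17936, 13566 and 5006 bp outside the window, all on its lower side, and none of them was shared between lists. In the RefSeq gene order (assembly WBcel235, used for order alone), let-7 overlaps C05G5.7 and lies between C05G5.1 and wshc-2.

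At lin-4 the evidence was thinner. The window on chromosome II, from 5897452 to 5905268, held 1 peak, from 5900045 to 5900324 in LIN-42::GFP replicate 1, with 5 tags (1.62 to 11.7) or 1.31 per 10000 kept tags. Neither replicate 2 nor endogenous LIN-42 had a peak in the window. Only 35.3% of replicate 1 peaks had fewer tags and 28.6% a lower fold (72.8). Of the 132 replicate 1 peaks with 5 tags, 31 were found in replicate 2 (23.5%, 17.1% to 31.4%) and 27 in the endogenous list (20.5%, 14.5% to 28.1%), so most peaks of this size were seen in a single list. The lin-4 peak was lost when 6 tags or a MACS p of 1e-10 were required.

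Around the lin-4 window, the endogenous list had a peak of 7 tags from 5889965 to 5890221, 7231 bp away on the lower side, and a peak of 5 tags from 5914495 to 5914601, 9227 bp away on the upper side. Neither overlapped a LIN-42::GFP peak. The nearest replicate 2 peak, of 5 tags, lay 20914 bp from the window. In the RefSeq order lin-4 lies within F59G1.4, next to tsp-18.

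mir-1 had no peak in its window on chromosome I, from 6170232 to 6178361, in any list. The nearest was a LIN-42::GFP replicate 2 peak of 5 tags (1.62 to 11.7) from 6169506 to 6169624, which ended 608 bp below the window. Of the 532 replicate 2 peaks with 5 tags, 21 overlapped a replicate 1 peak (3.95%, 2.6% to 5.96%), and this one did not. The nearest replicate 1 peak was 469529 bp away with 8 tags, and the nearest endogenous peak was 34233 bp away with 5 tags. The windows of lin-4 and mir-1 were both longer than that of let-7, at 7817 and 8130 bp.

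Within 20 kb, peaks at mir-239.2 held 701 of the 817 tags of the 5 genes, summed over lists of unlike depth without scaling. Only 30, 27 and 123 of them lay in its region, in replicate 1, replicate 2 and endogenous LIN-42. Neighbouring peaks on its lower side held 73, 165 and 269. The study's annotated peak list gives these neighbours to another gene, Y102F5A.1. In replicate 1 the peaks in the let-7 window held more tags (38) than the mir-239.2 region. The mir-239.2 region on chromosome X, from 11788060 to 11789455, is classed in that list as downstream of a non-coding gene. In LIN-42::GFP replicate 1 the peak ran from 11788060 to 11789288 with 30 tags (20.2 to 42.8), in replicate 2 from 11788651 to 11789455 with 27 tags (17.8 to 39.3), and in endogenous LIN-42 from 11788060 to 11789489 with 123 tags (102.0 to 147.0). Scaled to depth these are 7.85, 6.14 and 10.1 tags per 10000 kept tags, and the intervals of all 3 lists overlap each other. Overlap of intervals does not show that the rates are equal, and no test was run. The summits of the lists lay 6 to 19 bp apart.

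This peak was wide and carried many tags, yet its fold was among the lowest called. Fold enrichment was 7.83 in replicate 1, second from the bottom of 946, and 7.65 in replicate 2, second from the bottom of 2580, although 95.1% and 97.0% of the peaks in those lists had fewer tags. Of the 46 replicate 1 peaks with at least 30 tags it had the lowest fold, and of the 77 replicate 2 peaks with at least 27 tags 2, itself included, had a fold no higher. Peaks with at least 20 tags had a median fold of 74.8 in replicate 1 and 59.4 in replicate 2, and 4 in each list were under 10. In the endogenous list, whose header names no input control although the study's methods describe calling against input, the fold was 6.88 and such values were more frequent: 64 of the 203 peaks with at least 20 tags were under 10. The caller's score, 10 times the negative log10 of its p, was 59.76 and 55.35 in the LIN-42::GFP lists, where 5.39% and 1.63% of the peaks had a lower one, and 136.46 in the endogenous list.

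**Figure D3:**
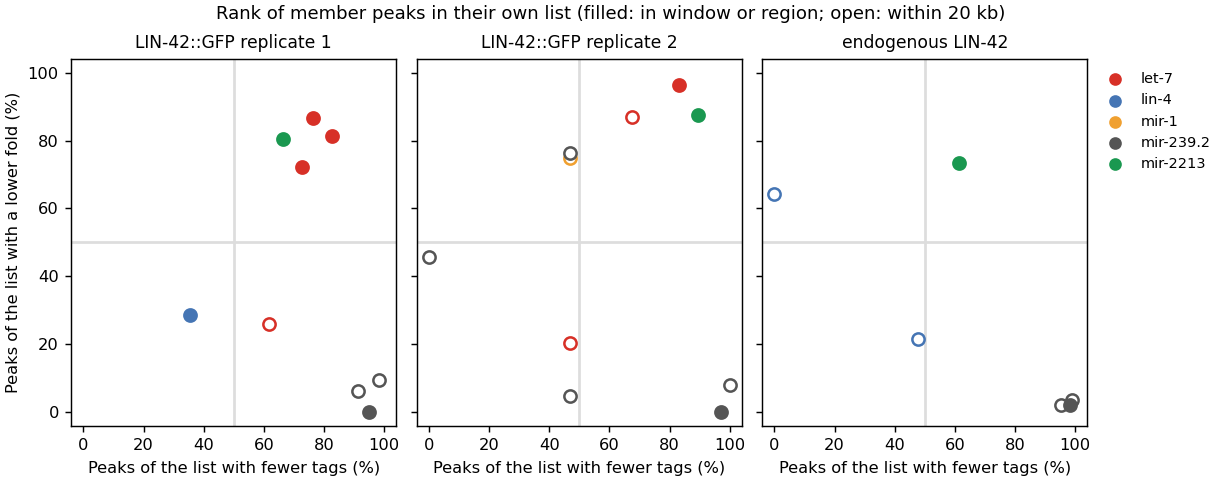
Rank of the 25 peaks at the miRNA genes within their own list. The x axis is the share of peaks in the list with fewer tags, the y axis the share with a lower fold enrichment (both %); filled points lie in a window or region and open points within 20 kb. The let-7 and mir-2213 peaks in the windows are in the upper right of each list that has them, and the mir-239.2 region and its large neighbours are at the lower right, with many tags and a low fold.

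The mir-239.2 region belonged to a longer run of peaks. On its lower side, replicate 1 had peaks of 22 tags from 11785705 to 11786090 and of 51 tags from 11786598 to 11787473. Replicate 2 had 1 peak there, from 11785666 to 11787489, with 165 tags (141.0 to 192.0), the most of any of its 2580 peaks. The endogenous list had peaks of 58 tags from 11785682 to 11786176 and of 211 tags from 11786234 to 11787856. The study's annotated peak list gives these neighbours to Y102F5A.1, a protein-coding gene, as promoter peaks, and Y102F5A.1 is next to mir-239.2 in the RefSeq order, with mir-239.1 on the other side.

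Taken as a run, peaks joined across gaps of up to 2000 bp spanned 3584, 3790 and 3808 bp in replicate 1, replicate 2 and endogenous LIN-42, and held 103, 192 and 392 tags over 2491, 2629 and 3548 bp of called peak. Per 10000 kept tags this was 26.9 (22.0 to 32.7), 43.6 (37.7 to 50.2) and 32.1 (29.0 to 35.5). The intervals of the LIN-42::GFP replicates do not overlap, and that of the endogenous library overlaps replicate 1 alone. As a share of the tags inside peaks, the run took 1.05%, 1.03% and 2.04%. In total tags, the difference between the replicates lay in the neighbours. The 165-tag peak covers both neighbouring peaks of replicate 1, which hold 73 tags together, and against their sum its rate was 1.96 times as high (37.5 per 10000 kept tags, 32.1 to 43.6, against 19.1, 15 to 24.0). Since it spans 1824 bp and they span 1262 bp, the ratio per kb of called peak was 1.36. In the region itself the ratio of total tags was 0.782, where the median of the 395 pairs was 0.913. Per kb of called peak, before scaling to depth, the region held 24.4 tags in replicate 1 and 33.5 in replicate 2. By this measure replicate 2 was the higher in the region too, with a peak of 805 bp against 1229 bp. As at let-7, called length depends on the tags, so no direction between the replicates is read from this density.

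In the mir-239.2 region the ratio of endogenous LIN-42 to LIN-42::GFP was above the median of pairs against either replicate. At the neighbours it depended on the replicate it was set against. The endogenous rate was 1.28 times that of replicate 1 in the mir-239.2 region, 1.3 times at the 51-tag neighbour and 0.826 times at the 22-tag neighbour, where the median of 309 peaks found in all 3 lists was 0.418, with 0.201 at the 5th percentile and 1.77 at the 95th. In the region, 274 of those 309 peaks had a lower ratio. Against replicate 2, it was 1.64 times in the region, with 348 of 407 pairs lower, but 0.461 times between the 165-tag and the 211-tag neighbours, next to a median of 0.466. These ratios are not scaled to called length. In the region the endogenous peak spans 1430 bp and the replicate 2 peak 805 bp. Per kb of called peak the run had 10.8, 16.6 and 9.05 tags per 10000 kept tags in replicate 1, replicate 2 and endogenous LIN-42. Called length depends on the tags, and it was longest in endogenous LIN-42 (2491, 2629 and 3548 bp). No order of the lists is read from this density. From first to last peak the runs spanned 3584, 3790 and 3808 bp, with 26.9, 43.6 and 32.1 tags per 10000 kept tags. The false discovery rate of MACS was 25% for the 165-tag peak and 0.24% for the region in replicate 2. Across that list the 18 peaks above 5% had 21 to 165 tags. However, 129 peaks of the list had at least 20 tags, so most peaks with many tags had a lower rate. Why the rate of the 165-tag peak was high was not tested.

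Beyond the run, replicate 2 had 3 more peaks within 20 kb of mir-239.2. They held 5 tags from 11783244 to 11783364, 5 tags from 11801665 to 11801771 and 4 tags from 11806689 to 11806789, and none was found in another list.

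mir-2213 had 1 peak of similar tag number in each list. On chromosome III, LIN-42::GFP replicate 1 had 9 tags (4.12 to 17.1) from 6968135 to 6968306, replicate 2 had 11 tags (5.49 to 19.7) from 6968091 to 6968309, and endogenous LIN-42 had 9 tags (4.12 to 17.1) from 6968118 to 6968292. The replicate 1 peak lay wholly inside the replicate 2 peak, an overlap of 172 bp, and the summits of the lists were 8 to 39 bp apart. No other peak was called within 20 kb in any list. The study's annotated peak list classes the region under promoters of non-coding genes, and in the RefSeq order mir-2213 lies between panl-2 and F31E3.12.

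Scaled to depth, mir-2213 took 2.35, 2.5 and 0.737 tags per 10000 kept tags. The ratio of replicate 2 to replicate 1 was 1.06, with 60.3% of the 395 pairs lower. The ratio of endogenous LIN-42 to replicate 1 was 0.313, with 23.9% of the 309 lower, so the endogenous signal was weaker here relative to replicate 1 than in the mir-239.2 region. The intervals of all 3 lists overlap, but such overlap does not show equal signal, and no test was run. The fold was 187.4, 114.61 and 45.35, above 80.5%, 87.6% and 73.5% of the peaks in each list.

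**Figure D4:**
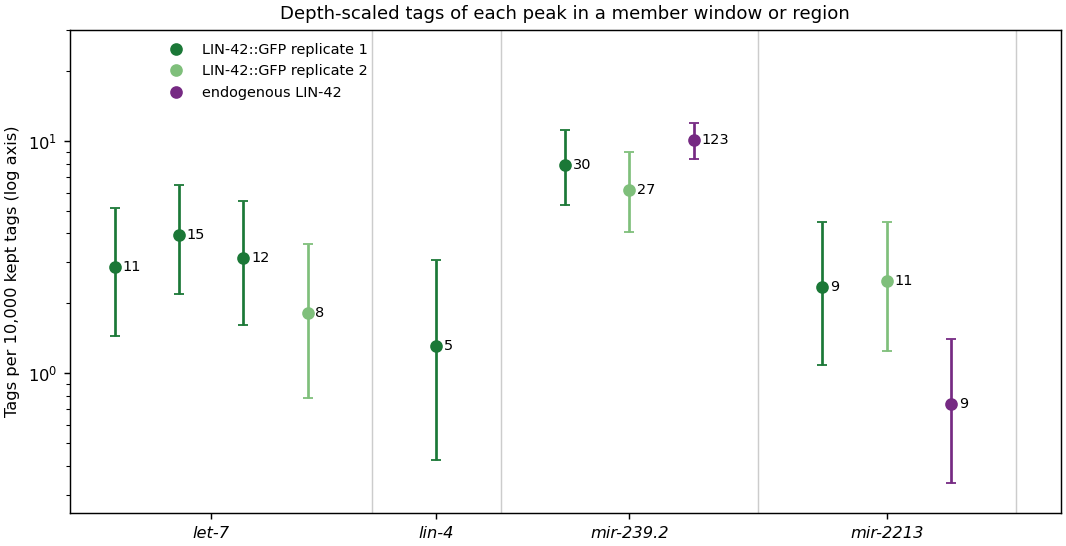
Tags per 10000 kept tags (log axis) of each of the 11 peaks in the windows or regions, by gene and list, with exact 95% Poisson intervals and the number of tags beside each point. The mir-239.2 peaks lie at 6.14 to 10.1, those of let-7 at 1.82 to 3.92, the lin-4 peak at 1.31 and those of mir-2213 at 0.737 to 2.5; mir-1 has no peak in its window.

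Having another peak of the same list within 20 kb was common in all lists. It held for 4 of the 6 replicate 1 peaks in the windows, where 47.8% of the list had such a neighbour, for 2 of 3 in replicate 2, where 66.5% had, and for 1 of 2 in endogenous LIN-42, where 43.5% had. These members come from let-7 and mir-239.2, and neighbouring peaks of a gene are not independent of each other.

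The closest genes of the study's annotated peak list were set beside lists of genes of the same pathway. Of 16 heterochronic genes, let-7 included, 2 were among them (12.5%), where 1.34% of all protein-coding and miRNA genes in RefSeq were (272 of 20243): let-7 itself and kin-20, a casein kinase homologous to the fly clock kinase Doubletime. lin-4, lin-14, lin-28, lin-29, lin-41, lin-46, lin-66, lin-42 itself, hbl-1, daf-12, dre-1 and the let-7 relatives mir-48, mir-84 and mir-241 were not. None of 5 other miRNA genes (mir-79, mir-58, mir-46, lsy-6 and mir-1) was, with mir-58 looked for also as mir-58.1, its name in RefSeq, nor any of 7 genes for making or using miRNAs (alg-1, alg-2, ain-1, ain-2, drsh-1, pash-1 and dcr-1). Of the 260 miRNA genes in the RefSeq annotation, 3 were (1.15%): let-7, mir-239.2 and mir-2213. This share is close to that of all genes, and the RefSeq names matched 327 of the 338 closest genes. With lists this short and chosen with results known, nothing is read from these shares about the pathway.

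kin-20 had a peak in each list on chromosome X. LIN-42::GFP replicate 1 held 5 tags from 15275405 to 15275529, replicate 2 held 19 tags from 15275369 to 15275546, and endogenous LIN-42 held 14 tags from 15275416 to 15275532. Its replicate 1 peak had as many tags as the lin-4 peak, which was found in no other list.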

How the data were processed

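Peak lists of 3 ChIP-seq libraries were analysed. Reads were aligned by the authors to ce10 with Bowtie2, uniquely aligned reads were kept, and peaks were called with MACS (version 1.4.2 per the file headers, p threshold 1.00e-05) on each library alone. The LIN-42::GFP headers name an input control, with 3320847 kept tags for replicate 1 and 1697123 for replicate 2; the endogenous header names none. The inputs are numbered otherwise in the headers than in the labels, so which input served which replicate was not settled. The deposited count of tags per peak, after redundant tags were removed, was not normalized by the authors. The deposited score is the negative log10 of the caller's p, multiplied by 10, the deposited fold enrichment is a ratio to the background that MACS estimated, and the false discovery rate in percent (%) was deposited for the LIN-42::GFP lists only. The authors' annotation of shared regions gave closest genes and classes, with no values used.

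Here, peaks were called shared when they overlapped by at least 1 bp. Shared peaks were counted as replicate 1 peaks, and these counts are somewhat smaller than the study's own, whose overlap rule is not stated. A peak belonged to a gene when it overlapped the window or region, or lay within 20 kb of it. Tag counts have exact Poisson intervals and shares Wilson intervals, both at 95%. The lists come from separate calls with 1 endogenous library, so no test between groups was run. The genes named are the 5 members, every gene closest to a shared region within 20 kb of them, and every gene of the fixed lists closest to a shared region. The other genes in the text are the fixed lists themselves and neighbours of the members. The members and lists were chosen with earlier results of these data known. Thresholds on p, tags and false discovery rate, the width of windows, the overlap rule and the replicates used were varied. Overlap counting was tested on simulated data. The tools were SciPy 1.17.1, pandas 2.3.3 and NumPy 2.4.6 in Python 3.11.15, with figures drawn in Matplotlib 3.10.9. Reads, input signal and a ce10 genome were not used here, so no sequences are shown and signal without a peak is not reported.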

Additional observations from a re-analysis of the deposited data

How the results depend on the processing

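The count of 11 peaks in the windows and regions stayed within 1.5 times under every threshold and window tried, from 8 at a MACS p of 1e-10 or less to 15 with windows widened by 1 kb. It was 5 to 8 with either LIN-42::GFP replicate left out. The 25 peaks within 20 kb became 15 to 16 when a replicate was left out (16 without replicate 1, 15 without replicate 2) and 18 to 24 under the thresholds on p, tags and false discovery rate. Of the 3 peaks shared by both replicates, let-7 was lost when 50% of each peak or summits within 200 bp were required, which left 2. Of the 2 also found with endogenous LIN-42, 1 remained at a p of 1e-10 or less, since both LIN-42::GFP peaks of the mir-239.2 region have a weaker p. At that threshold mir-239.2 fell from 3 peaks to 1 and lin-4 from 1 to 0. lin-4 also went to 0 at 6 tags or more. let-7 kept 4 peaks and mir-2213 kept 3 under each threshold. mir-1 had 0, which was fixed in advance, since a stricter threshold can only remove peaks. The threshold on false discovery rate could remove peaks of replicate 2 alone. All 946 replicate 1 peaks have a rate of 0, and the endogenous list gives none. No paired test was run, as no test between groups was. The lists come from separate calls with 1 endogenous library. Depth limits the small peaks most: 4 or 5 tags made a peak, and the endogenous antibody has no replicate.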
